A study of Mus musculus with 6 samples.

Results

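Heat shock proteins and related chaperones were examined as 10 genes of 4 classes, chosen by gene symbol. The cytosolic class held Hsp90aa1, Hsp90ab1 and Hspa8, the small heat shock protein class Hspb1, Hspb7 and Cryab, the endoplasmic reticulum (ER) class Hspa5, and the mitochondrial class Hspa9, Hspd1 and Hspe1. Of the 12560 genes in the deposited table, 10 matched the 10 symbols, and 0 were absent. The samples were described as chondrocytes, the cells that make cartilage, from mice, with 3 libraries labelled control and 3 labelled Eldr cKO for the long noncoding RNA Eldr. The labels give no age, strain or sex, no agent, and neither the Cre driver of the conditional knockout nor the genotype that the controls carry. They do not say whether each library came from its own animal, so differences between libraries of a group may be technical. In the main test, p-values rest on those differences as summarized over all tested genes by a trend with level. The design sets one genotype against the other, in a study of chondrocyte senescence, and Eldr itself was not analysed here.

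Chaperones bind unfolded or partly folded proteins and release them for folding or disposal, mostly in cycles of ATP binding and hydrolysis. Hsp90 and Hsp70 proteins do this in the cytosol, Hspa5 (also called BiP or GRP78) in the ER, and Hspa9 (mortalin) with the Hspd1 and Hspe1 chaperonin (HSP60 and HSP10) in mitochondria. Small heat shock proteins hold unfolding proteins without ATP, and Cryab and Hspb7 are abundant in heart and skeletal muscle, where they protect the contractile apparatus. Heat shock factor 1 raises many cytosolic and mitochondrial chaperones through heat shock elements in their promoters, whereas the unfolded protein response raises Hspa5 through ER stress elements.

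Promoter windows in RefSeq (GRCm38.p6) were found for 5 of the 10 genes: Hspd1, Hspe1, Hspa5, Hspb1 and Hspb7. The following stretches are shown because the classes they stand for were compared: the start region shared by both chaperonin genes, the ER stress element of Hspa5, and the promoters of a pair of small heat shock protein genes. Each is written 5′ to 3′ on the plus strand, with motif letters in capitals.
Hspd1 and Hspe1, chr1:55088053-55088082: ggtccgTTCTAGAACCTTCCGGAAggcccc
Hspa5, chr2:34772020-34772049: cttcaCCAATCGGAGGCCTCCACGacgggg
Hspb1, chr5:135887669-135887918: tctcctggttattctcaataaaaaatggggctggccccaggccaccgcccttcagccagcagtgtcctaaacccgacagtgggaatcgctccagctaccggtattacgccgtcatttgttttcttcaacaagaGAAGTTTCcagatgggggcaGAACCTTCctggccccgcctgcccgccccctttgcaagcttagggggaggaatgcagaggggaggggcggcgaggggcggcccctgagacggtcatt
Hspb7, chr4:141420529-141420778: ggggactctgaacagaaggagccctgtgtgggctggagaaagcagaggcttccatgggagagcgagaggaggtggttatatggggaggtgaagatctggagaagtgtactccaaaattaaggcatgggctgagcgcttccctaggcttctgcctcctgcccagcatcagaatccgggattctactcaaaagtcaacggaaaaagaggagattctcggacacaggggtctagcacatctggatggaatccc
Hspd1 and Hspe1 lie head to head on opposite strands of chromosome 1, and the annotated genes overlap by 112 bp. Their shared stretch held a heat shock element of 4 alternating TTC and GAA units with 2 bases of any letter between neighbours. Searched on both strands, this motif stood in 5 of 32851 promoter windows (0.0152%), those of Hspd1 and Hspe1 included. The shorter forms GAANNTTC or TTCNNGAA, where N is any base and which overlap within the longer one, stood in 15.1% of windows, among them that of Hspb1 and not that of Hspb7. The ER stress element, CCAAT and CCACG with 9 bases of any letter between them, stood in 39 windows (0.119%), including that of Hspa5. These matches describe letters in the windows, not bound sites. The Hspb1 and Hspb7 stretches end 1 base before the annotated start, and the shorter stretches each overlap 1 annotated exon.

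Values were FPKM, fragments scaled to transcript length and to the library's mapped fragments, so levels can be compared between genes. The libraries were shallow: steps in FPKM put their depth between 79506 and 464360 fragments in the controls and between 52354 and 191543 in Eldr cKO. Transcripts of the mitochondrial genome took 41.1% to 70.0% of all FPKM among controls, against 33.8% to 43.6% among Eldr cKO libraries. A group of 12 repeat-rich predicted genes made up 3.07% to 13.4% in the controls, 3.84% in Eldr cKO 1 and 48.8% and 46.2% in Eldr cKO 2 and 3. Of 14 cartilage markers 5 were in the table, none of them detected in every library. The highest values of the most abundant of these were 11.2 FPKM for Comp in Eldr cKO 1 and 7.24 FPKM for Cytl1 in control 3, and Sox9 was at most 6.13 FPKM. Col2a1 and Acan were not analysed here. All 12 heart muscle markers were in the table, 8 of them detected in every library, with Myh6 between 195 and 2920 FPKM and Myl2 between 112 and 1612 FPKM. Summed, the 5 cartilage markers lay between 0.616 and 18.7 FPKM, against 920 to 9021 FPKM for the heart muscle markers. In every library the heart muscle sum lay far above the cartilage sum, although the samples were described as chondrocytes. These marker values go against that description, and the reason was not tested. In bulk samples the number of cells of a type and the RNA per cell cannot be told apart.

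All members but Hspe1 were above 0 in every library, some of them on under 1 estimated fragment, and no member passed the test between genotypes. Summed over the 10 genes, FPKM came to 1272, 571 and 1303 over the control libraries versus 1754, 676 and 767 over those of Eldr cKO. As a share of all FPKM outside the mitochondrial genome and the repeat-rich genes, this was 1.01%, 0.897% and 1.04% in the controls and 1.19%, 0.971% and 0.932% in Eldr cKO, so the groups overlapped. Across 9007 genes tested with limma and Benjamini-Hochberg adjustment, 0 were called (0.00%), and 0 of the 10 members were among them. At an unadjusted p under 0.05 stood 135 genes (1.50%), Hspe1 being the 1 member among them. By fitted log2 fold change, 4 members lay above 0 and 6 below it with a median of -0.25, while 45.5% of all tested genes were higher with a median of -0.13. Groups did not overlap for 1 member, Hspe1, which was lower in each Eldr cKO library, against 2.45% of tested genes that were lower without overlap, 1.49% that were higher and 3.94% in either direction.

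By mean over the 6 libraries, Cryab had the highest level (284 ± 211 FPKM, SD, n = 6), followed by Hsp90ab1 (166 ± 77.8), Hspb7 (107 ± 94.2), Hspa8 (99.3 ± 47.1), Hspd1 (92.0 ± 68.6), Hspa9 (88.5 ± 54.4), Hsp90aa1 (83.6 ± 63.2), Hspe1 (64.1 ± 74.0), Hspa5 (37.0 ± 16.3) and Hspb1 (35.1 ± 23.8). No pair of neighbours in this order differed beyond its spread. Cryab exceeded Hsp90ab1 in 4 of 6 libraries, and Hspa8 exceeded Hspd1 in 5, the most for any neighbours. Cryab ranked first among the 10 in 4 libraries, while Hsp90ab1 ranked first in control 3 and Eldr cKO 3. Among all 12560 genes the mean of Cryab ranked 49th and that of Hsp90ab1 95th.

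**Figure D1:**
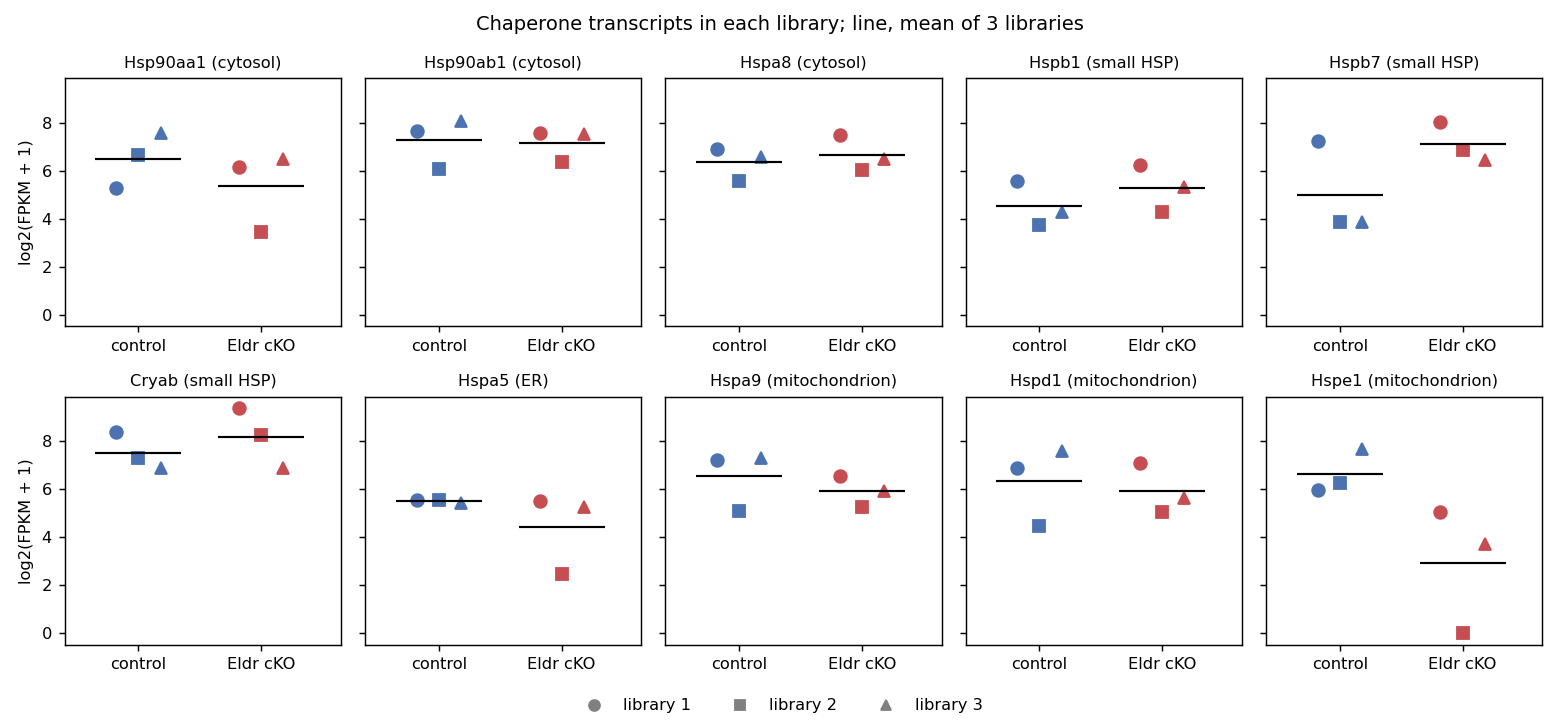
Level of the 10 chaperone genes in each library, as log2(FPKM + 1), with controls in blue, Eldr cKO in red, a marker shape for each library number and a line at the mean of 3 libraries. Only for Hspe1 do the groups not overlap, and Hspb7 is low in control 2 and 3 alone.

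Among cytosolic chaperones the constitutive genes overlapped between genotypes. Hsp90ab1, the constitutive Hsp90 (GRCm38 chromosome 17, 45567775 to 45573271), read 203, 66.0 and 270 FPKM over the control libraries versus 191, 81.7 and 186 over the Eldr cKO ones. The second library of each group was lowest, and the groups overlapped, at a log2 fold change (on FPKM + 1) of -0.11 (SE 1.04, limma, adjusted p = 1.00). Its direction turned without control 1 (0.093), without control 3 (0.30) and without Eldr cKO 2 (0.29). Hspa8, the constitutive Hsc70 that also uncoats clathrin vesicles (chromosome 9, 40800984 to 40810087), gave control values of 121, 46.9 and 94.8 FPKM next to Eldr cKO values of 180, 64.9 and 88.1 FPKM. These values overlapped too, and the log2 fold change of 0.31 (SE 1.10) became -0.082 without control 2 and -0.10 without Eldr cKO 1.

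Hsp90aa1, the stress-inducible Hsp90 (chromosome 12, 110690605 to 110702728), varied more than its constitutive paralog. It had 37.9, 99.8 and 193 FPKM across controls 1 to 3, against 70.7, 9.86 and 90.2 across Eldr cKO 1 to 3, a 19.6-fold range against 4.09-fold for Hsp90ab1. The low value in Eldr cKO 2 stood on about 1.69 fragments at the length of its longest coding transcript. Its log2 fold change of -1.14 (SE 1.15, limma, adjusted p = 1.00) was -0.17 without that library. Per library, the ratio of Hsp90aa1 to Hsp90ab1 was 0.187, 1.51 and 0.715 in the controls and 0.371, 0.121 and 0.485 in Eldr cKO, so it too overlapped.

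Small heat shock proteins were higher on average in Eldr cKO for all 3 genes, none of which passed the test. Hspb7, a small heat shock protein of heart and skeletal muscle (chromosome 4, 141420779 to 141425311), read 150, 13.7 and 13.7 FPKM over the control libraries versus 264, 117 and 86.6 over the Eldr cKO ones. Every Eldr cKO library lay above control 2 and 3, while control 1 lay above Eldr cKO 2 and 3. Hspb7 has 1 annotated transcript, and at its length these values came to 193, 3.01 and 4.93 fragments in the controls and 140, 17.0 and 13.4 in Eldr cKO. The low control values therefore stood on few fragments. Its log2 fold change was 2.13 (SE 1.14, limma, adjusted p = 1.00), it ranged from 1.57 without control 3 to 3.25 without control 1, and the authors' deposited table gave p = 0.155.

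Cryab, which encodes alpha B-crystallin (chromosome 9, 50751325 to 50756636), gave control values of 334, 156 and 116 FPKM next to Eldr cKO values of 668, 309 and 119 FPKM. Eldr cKO 1 was highest and control 3 lowest, and the groups overlapped (log2 fold change 0.67, SE 0.98, limma, adjusted p = 1.00, and 0.072 without Eldr cKO 1). Cryab overlaps Hspb2 by 1030 bp on the opposite strand. The library kit is stranded per the labels, and the strand setting of the counting is not given here, so reads of both genes may mix. Hspb1, the widely expressed HSP27 homologue (chromosome 5, 135887919 to 135889563), had 47.4, 12.3 and 18.7 FPKM across controls 1 to 3, against 75.1, 18.5 and 38.8 across Eldr cKO 1 to 3. The first library was highest in each group, and the log2 fold change was 0.74 (SE 1.24), with 0.26 without Eldr cKO 1 and 1.27 without control 1. In control 2 and Eldr cKO 2 the Hspb1 value stood on 0.908 and 0.902 fragments.

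Heart muscle markers varied strongly beside these genes. The summed FPKM of the 12 markers was 9021, 2201 and 920 in the controls and 8025, 1663 and 2070 in Eldr cKO, and it was highest in control 1 and Eldr cKO 1, as were Hspb7, Hspb1 and Cryab. Per 1000 FPKM of heart markers, Hspb7 stood at 16.7, 6.22 and 14.8 in the controls and at 32.9, 70.4 and 41.8 in Eldr cKO, without overlap. On the same scale Cryab stood at 37.0, 70.9 and 127 in the controls and at 83.3, 186 and 57.5 in Eldr cKO, with overlap. Hspb1 overlapped too, at 5.25, 5.58 and 20.4 in the controls and 9.36, 11.1 and 18.8 in Eldr cKO. The Hspb7 values of control 2 and 3 rest on 3.01 and 4.93 fragments. Many sums and ratios were compared between groups, and the share of all genes without overlap was not computed on this scale. The ratios to heart markers carry no p, since the genes were chosen with results known. The part of muscle content in the levels of these genes was not tested.

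The ER chaperone Hspa5 had close values in 5 of 6 libraries. Hspa5 (chromosome 2, 34771970 to 34777547), the Hsp70 of the ER lumen, read 46.7, 46.5 and 42.4 FPKM over the control libraries versus 44.8, 4.50 and 37.3 over the Eldr cKO ones. The value in Eldr cKO 2 stood on 0.865 fragments at full transcript length, and the other 5 libraries spanned 37.3 to 46.7 FPKM. Its log2 fold change was -1.12 (SE 1.23, limma, adjusted p = 1.00), and it was -0.14 without Eldr cKO 2.

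Mitochondrial chaperones were lower on average in Eldr cKO for all 3 genes, most in Hspe1. Hspe1, the lid of the chaperonin barrel (chromosome 1, 55088132 to 55091307), read 62.4, 74.9 and 204 FPKM over the control libraries, against 31.8 and 12.1 FPKM for Eldr cKO 1 and 3, and was listed at 0 for Eldr cKO 2. Each Eldr cKO value lay under each control value. The log2 fold change of FPKM + 1 was -3.72 (SE 1.25, limma, unadjusted p = 0.00283, adjusted p = 1.00, with a range of 0.328 to 1.00 for the adjusted p under other settings), and the authors' deposited table gave p = 0.0801. Without Eldr cKO 2 it was -2.26. With a longest coding transcript of 774 nt, 1 fragment was worth 24.7 FPKM in Eldr cKO 2 and 23.1 FPKM in Eldr cKO 3, against 2.78 FPKM in control 1. The values came to 22.4, 4.61 and 20.5 fragments in the controls and to 4.72, 0 and 0.523 in Eldr cKO, so the low side rests on few fragments. GENCODE M21 names 6 Hspe1 and 5 Hspd1 pseudogenes, so reads of both genes may be shared with near-identical copies.

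Hspd1, which forms the barrel itself (chromosome 1, 55077835 to 55088243), gave control values of 119, 21.3 and 194 FPKM next to Eldr cKO values of 136, 32.7 and 48.4 FPKM. These values overlapped, and the log2 fold change was -0.40 (SE 1.14), turning to 0.24 without control 3 and 0.032 without Eldr cKO 2. The ratio of Hspe1 to Hspd1, which share a start region, differed widely, at 0.522, 3.52 and 1.05 in the controls and at 0.233, 0 and 0.250 in Eldr cKO. Every control ratio lay above every Eldr cKO ratio. This is not independent of Hspe1, whose own groups did not overlap and whose Eldr cKO values stood on 4.72, 0 and 0.523 fragments. The ratio of control 2 stood on 4.61 fragments of Hspe1 and 4.10 of Hspd1. The share of gene pairs whose ratios do not overlap was not computed. Hspa9, the mitochondrial Hsp70 that pulls proteins through the import channel, had 150, 33.5 and 156 FPKM across controls 1 to 3, against 92.7, 37.8 and 60.6 across Eldr cKO 1 to 3, with overlap. Its log2 fold change was -0.62 (SE 1.13), ranging from -1.34 without control 2 to -0.25 without control 3. The ratio of Hspa9 to Hspd1 stayed between 0.680 and 1.58 in all 6 libraries, and the Pearson correlation of their log2(FPKM + 1) was 0.96 over these 6 libraries, which also differ in depth.

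**Figure D2:**
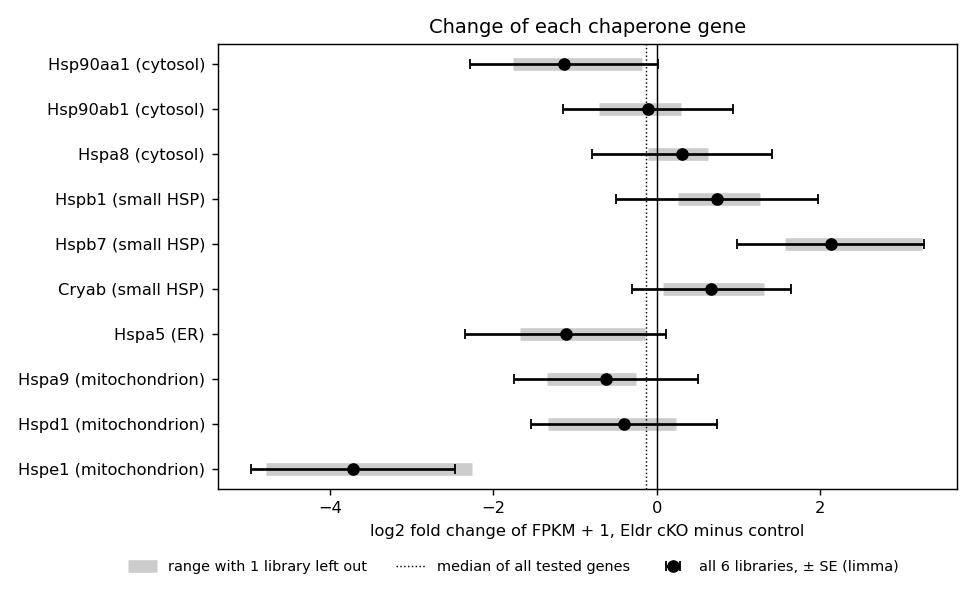
Log2 fold change of FPKM + 1, Eldr cKO minus control, of each chaperone gene; points with bars are limma estimates ± SE from 6 libraries, grey bands the range with 1 library left out, the dotted line the median of all tested genes. The 3 small heat shock protein genes lie to the right of 0, the 3 mitochondrial genes to the left, and the bands of Hsp90ab1, Hspa8 and Hspd1 cross 0.

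Set against each other within a library, small chaperones outweighed mitochondrial ones in each Eldr cKO library, and also in control 1 and control 2. Summed over 3 genes, small heat shock proteins reached 531, 182 and 149 FPKM in the controls and 1007, 444 and 244 FPKM in Eldr cKO, and mitochondrial chaperones 332, 130 and 554 FPKM in the controls and 261, 70.5 and 121 FPKM in Eldr cKO. Each of these sums overlapped between groups. The ratio of the small to the mitochondrial sum, which is free of the scaling of the library, was 1.60, 1.40 and 0.269 in the controls and 3.86, 6.30 and 2.02 in Eldr cKO, without overlap. On the log2 scale the groups differed by 2.12 on average, and by 1.29 without control 3. Leaving out Hspe1 brought overlap, with ratios of 1.97, 3.33 and 0.425 in the controls and 4.40, 6.30 and 2.24 in Eldr cKO. Leaving out each of the other 5 genes in turn left the groups apart, narrowly so without Hspb7 (at most 1.299 in the controls and at least 1.304 in Eldr cKO). These ratios carry no p, since the genes were chosen with results known.

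As shares of the 10-gene sum, mitochondrial chaperones held 26.1%, 22.7% and 42.5% in the controls and 14.9%, 10.4% and 15.8% in Eldr cKO, without overlap. This separation rested on Hspe1: without it the shares were 22.3%, 11.0% and 31.9% in the controls and 13.3%, 10.4% and 14.4% in Eldr cKO, with overlap. Small heat shock proteins held 41.8%, 31.9% and 11.4% in the controls and 57.4%, 65.8% and 31.9% in Eldr cKO, where Eldr cKO 3 lay within the range of the controls. Cytosolic chaperones held 28.4% to 42.8% in the controls and 23.1% to 47.5% in Eldr cKO, and Hspa5 held 3.26% to 8.15% and 0.666% to 4.86%. Small over cytosolic sums ran from 0.267 to 1.47 in the controls and from 0.671 to 2.84 in Eldr cKO, with overlap. Mitochondrial over cytosolic sums ran from 0.610 to 0.993 and from 0.332 to 0.590, without overlap. Without Hspe1 they overlapped as well, at 0.745, 0.257 and 0.628 in the controls and 0.518, 0.451 and 0.299 in Eldr cKO.

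**Figure D3:**
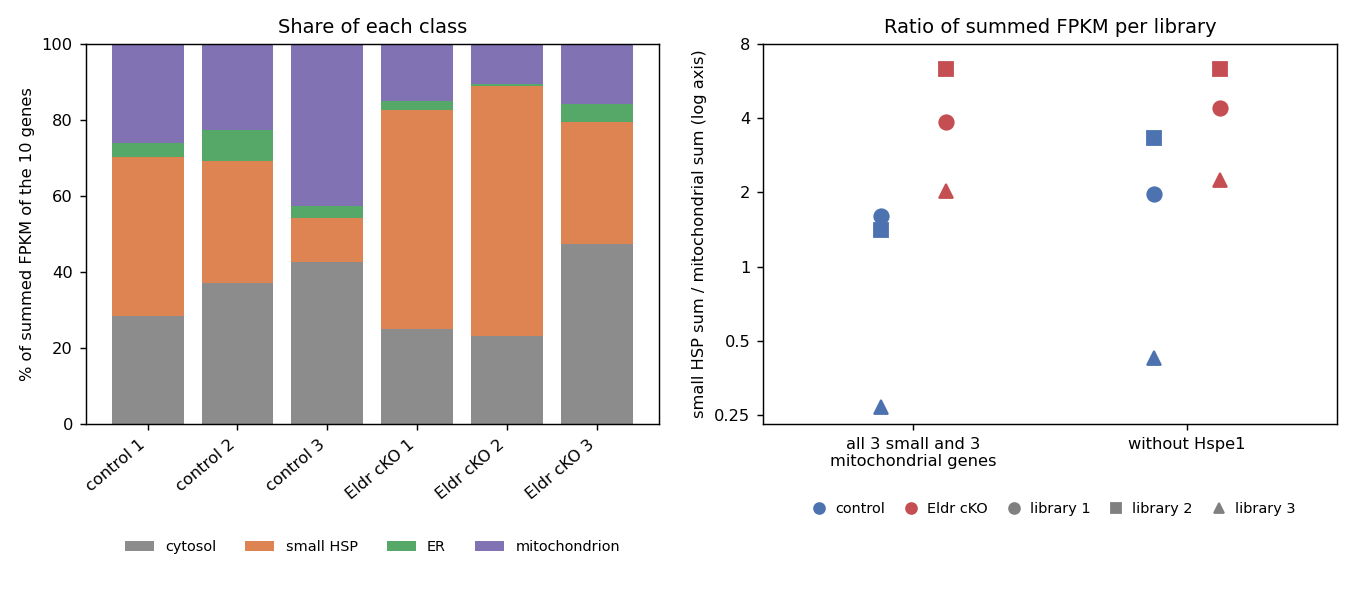
Left, share of each chaperone class in the summed FPKM of the 10 genes per library; right, ratio of the small to the mitochondrial sum per library on a log axis, with all genes and without Hspe1, controls in blue and Eldr cKO in red. The groups are apart at 1.60 and below against 2.02 and above with all genes, and overlap without Hspe1.

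Among related genes of the chaperone network, 0 passed the test in any list, and the counts below are of fitted directions only. Of 5 other small heat shock protein genes tested, 5 were higher and 0 lower (median log2 fold change 0.76), although Hspb3 and Hspb9 were above 0 in Eldr cKO 1 alone. Without that library 3 were tested, of which 2 were higher and 1 lower (median 0.12). Hspb6, which is abundant in muscle, read 208, 93.1 and 6.14 FPKM over the control libraries versus 213, 32.6 and 30.9 over the Eldr cKO ones. Hspb8, a partner of Bag3 in selective autophagy, gave control values of 49.9, 6.21 and 41.2 FPKM next to Eldr cKO values of 52.1, 24.6 and 54.0 FPKM. Both genes overlapped between groups. Of 10 other mitochondrial chaperones and proteases, 1 was higher and 9 lower (median -0.80), beside 45.5% higher and a median of -0.13 over all tested genes, and 0 were above 0 in all 6 libraries. Those above 0 numbered 10, 2 and 7 in the controls and 9, 2 and 1 in Eldr cKO. Hscb, counted among the 9 lower, was 0 in each Eldr cKO library and entered the test through control values alone. Its groups overlapped, since it was also 0 among the controls. The split therefore rests largely on values of 0 in shallow libraries and does not show a shift of the class. Without Eldr cKO 3 the split was 4 and 6 (median -0.23), without Eldr cKO 2 it was 3 and 7 (median -0.44), and the median was -1.78 without Eldr cKO 1 and -1.47 without control 2. The most abundant of them were the Lon protease Lonp1, with control values of 16.7, 0 and 33.9 FPKM next to 18.8, 0 and 0 for Eldr cKO, and the unfoldase Clpx, with control values of 30.2, 0 and 2.21 FPKM next to 9.70, 1.74 and 0 for Eldr cKO.

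Cytosolic partners split, with 12 higher and 19 lower of 31 tested (median -0.20). Bag1, a nucleotide exchange factor of Hsp70, had 51.5, 0 and 132 FPKM across controls 1 to 3, against 108, 0 and 99.2 across Eldr cKO 1 to 3. Ptges3, the Hsp90 co-chaperone p23, read 28.6, 20.2 and 132 FPKM over the control libraries versus 45.9, 80.7 and 8.60 over the Eldr cKO ones. Of 18 other ER chaperones, 7 were higher and 11 lower (median -0.34). Among these, the lectin chaperones Calr and Canx lay between 6.68 and 138 FPKM and between 9.74 and 119 FPKM, with overlap. The medians of both lists turned positive with some libraries left out, the cytosolic list reaching 0.19 without control 3 and the ER list 0.30 without Eldr cKO 2.

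The cytosolic chaperonin TRiC, which folds actin and tubulin, and its partner prefoldin had fitted values lower in 11 and higher in 2 of 13 tested genes (median -1.25), against 45.5% higher and a median of -0.13 over all tested genes. Cct5, a TRiC subunit, gave control values of 24.7, 25.1 and 189 FPKM next to Eldr cKO values of 74.6, 5.93 and 6.39 FPKM. Pfdn5, a prefoldin subunit, had 66.5, 9.07 and 140 FPKM across controls 1 to 3, against 127, 0 and 0 across Eldr cKO 1 to 3. In both genes Eldr cKO 1 lay within the control range and Eldr cKO 2 and 3 below it. The median of this list was -0.60 without control 3 and -0.54 without Eldr cKO 2. Its genes above 0 numbered 12, 10 and 13 in the controls and 11, 7 and 9 in Eldr cKO. Pfdn4, counted among the 11 lower, was 0 in each Eldr cKO library and entered the test through control values alone. Its groups overlapped. The split therefore rests in part on values of 0 in shallow libraries and does not show a shift of the list. Of 8 regulators of the stress responses, 5 were higher and 3 lower (median 0.14). They include Atf4, with control values of 16.7, 22.8 and 43.9 FPKM next to 52.3, 23.9 and 0 for Eldr cKO, and Atf6, with control values of 9.83, 0 and 26.1 FPKM next to 10.8, 3.08 and 9.36 for Eldr cKO. Hsf4, counted among the 5 higher, was 0 in each control and entered the test through Eldr cKO values alone.

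**Figure D4:**
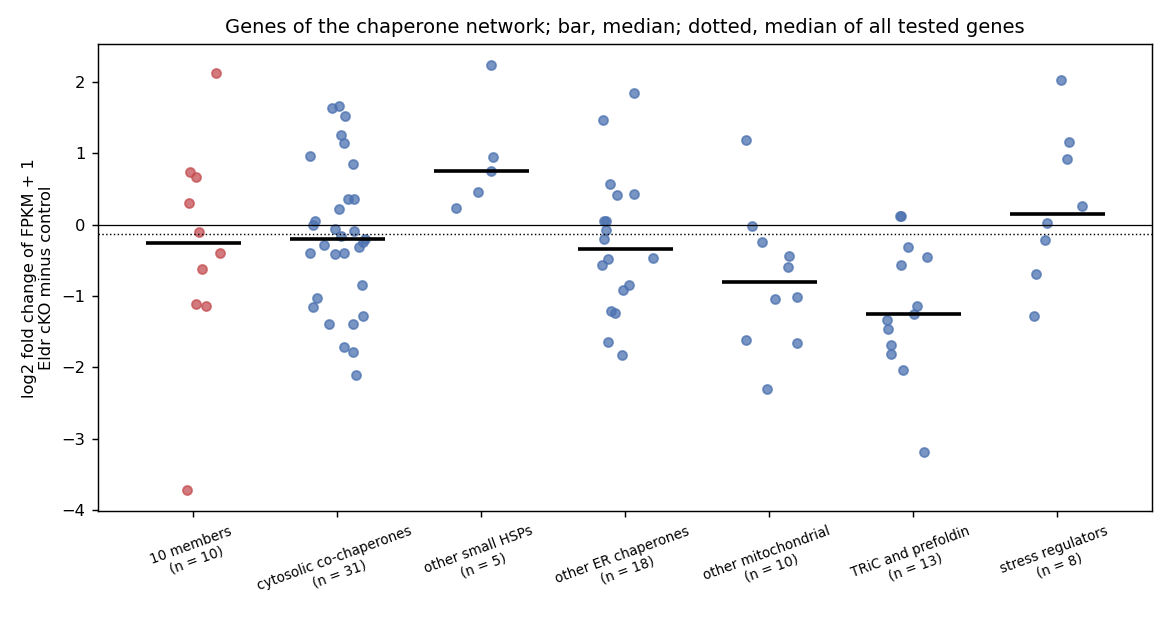
Log2 fold change of FPKM + 1, Eldr cKO minus control, of the 10 chaperone genes (red) and of 6 lists of related genes (blue), with a bar at each median and a dotted line at the median of all tested genes. The medians of the other small heat shock proteins (0.76) and of TRiC and prefoldin (-1.25) are the highest and the lowest.

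Likeness of pattern across libraries was taken for the most abundant member of each class. Among the 1592 genes above 0 in all 6 libraries, Pearson's r of log2(FPKM + 1) with Hsp90ab1 was highest for Lmo7 and Pfdn2 (0.98 each) and was 0.92 for Hspd1, 0.92 for Hspa9 and -0.02 for Cryab. With Cryab it was highest for Acta2 (0.99), smooth muscle actin, and Eef1d (0.98), and was 0.79 for Hspb7, 0.63 for Hspb1 and -0.51 for Hsp90aa1. With Hspa5 it was highest for Vps35 (0.99) and Lman1 (0.97), and with Hspd1 for Pgm2 and the gene listed as Cyr61 (0.98 each). These values rest on 6 libraries that share differences in depth and content, and they describe these libraries only.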

How the data were processed

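RNA of 3 control and 3 Eldr cKO libraries was sequenced after Trizol extraction, per the labels' protocols, which name both poly(A) selection and ribosomal RNA removal without saying which was used. The submitters' processing notes name cutadapt, HISAT2 2.0.5 and StringTie, and a human build, hg19, although gene IDs are those of mouse. The positions of the 10 members equal those of GENCODE M21, so GRCm38 is given. The authors' deposited table held FPKM per gene and library, used here as deposited. Its group columns hold the authors' mean log2(FPKM + 1), and its log2 fold change, fold (a linear ratio) and p-value come from the authors' deposited comparison.

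Genes averaging 1 FPKM or more entered limma 3.58.1 (R 4.3.3) on log2(FPKM + 1), a scale that understates the change of low genes. The test was two-sided with an intensity trend, genotype as the single factor and Benjamini-Hochberg adjustment at 0.05. The prior degrees of freedom were infinite, so each SE came from the variance trend and not from the gene's own spread. The script was tested on simulated data as a check of the code. The pass condition was set at a depth far above that of these libraries. Passing it does not show which changes these libraries could detect.

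Depth was taken as the most frequent inverse of FPKM times length over genes with 1 transcript. Per library, 73 to 149 of these genes lay within 3% of 1 fragment. Fragments per value use this depth and the longest coding transcript, and are approximate for genes with several transcripts. No count model was applied to the FPKM. Genes named were all members, the 2 most abundant genes of each related list, the 2 most abundant of each marker list with Sox9, Col2a1 and Acan, and the 2 genes most like the most abundant member of each class. Hspb2, Hspb3, Hspb9, Hscb, Pfdn4, Hsf4, Hspa14, Hspa1a, Hspa1b and Serpinh1 were chosen after their values were seen. The members and lists were chosen with earlier results of these data known. Alternatives were other pseudocounts, filters, scalings, variance models, a replicate block and each library left out. Tables were handled with Python 3.11.15.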

Additional observations from a re-analysis of the deposited data

How the results depend on the processing

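Over all fits and libraries left out, 0 of the 10 members passed the threshold. The count of genes past it, 0 of 9007, became 6 with library quality weights and ranged from 0 to 4 with 1 library left out (4 without Eldr cKO 1, 1 without control 1 and 0 without each of the others). Log2 fold changes of members ranged, with 1 library left out, from -0.71 to 0.30 for Hsp90ab1, from -0.10 to 0.63 for Hspa8 and from -1.33 to 0.24 for Hspd1. The change of Hspa8 was -0.0047 with library quality weights. The other 7 members kept their direction in all of these fits. Summed FPKM changed, on the log2 scale, by -0.26 for the cytosolic class (-0.62 to 0.20 with 1 library left out), by 0.98 for the small class (0.44 to 1.54), by -1.21 for the ER (-1.80 to -0.14) and by -1.14 for the mitochondrial class (-1.72 to -0.67). The change of the small to mitochondrial ratio ranged from 1.29 to 2.58 with 1 library left out, and from 1.49 (without Hspe1) to 2.85 (without Cryab) with 1 gene left out. Without Hspe1, the log2 change of the mitochondrial share went from -1.12 to -0.66 and that of the mitochondrial to cytosolic ratio from -0.88 to -0.26. These alternatives were chosen after seeing the data. Among medians of related lists, the stress regulators turned to -0.090 at a minimum mean of 5 FPKM, to -0.052 with library quality weights and reached -0.56 without control 2, within -0.56 to 0.92 over libraries left out. That of the cytosolic partners ranged from -0.93 to 0.19 and that of the ER list from -1.02 to 0.30. The cause was not tested. Quantile normalization moved the median change of all genes from -0.13 to 0.013.

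With the replicate number as a block, 0 genes passed, also after quantile normalization, and 223 and 237 genes had an unadjusted p under 0.05. In these 2 fits the unadjusted limma p was 0.0188 and 0.00170 for Hspe1, and 0.0323 and 0.0125 for Hspb7. Hspb7 had 0.0620 in the main fit. Deviations of same-numbered libraries correlated at 0.28, 0.15 and 0.095 across genes, and each library correlated best with its own number. The labels do not say that the numbers pair libraries, and the main fit did not take them as pairs. Depth limits Hspe1, Hspb1 and Hspa5 most, with under 1 estimated fragment in at least 1 library.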

Other observations

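Hspa1a and Hspa1b, the stress-inducible Hsp70 genes, varied more between libraries than any Hsp70 among the 10 members and did so together. Hspa1a read 4.50, 60.5 and 11.0 FPKM over control 1, 2 and 3, against 68.1, 98.9 and 17.5 FPKM over Eldr cKO 1, 2 and 3. Hspa1b read 5.75, 60.1 and 10.7 FPKM over the control libraries versus 72.3, 74.8 and 24.9 over the Eldr cKO ones. Control 1, the deepest library, was lowest for both. Their ratio stayed between 0.705 and 1.32, and both encode near-identical proteins, so the split of reads between them is uncertain. The log2 fold changes of FPKM + 1 were 1.66 (SE 1.24) and 1.63 (SE 1.24), with overlap between groups (limma, adjusted p = 1.00 for each).

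Serpinh1, the ER chaperone of collagen known as HSP47, gave control values of 24.2, 5.18 and 6.26 FPKM next to Eldr cKO values of 52.3, 31.2 and 29.1 FPKM. It was higher in each Eldr cKO library than in each control, as were 1.49% of tested genes, with a log2 fold change of 1.84 (SE 1.28, limma, adjusted p = 1.00). Among the genes of the 6 related lists that were tested, 1 other had groups that did not overlap, in the opposite direction. This was Hspa14, an Hsp70 family member, with control values of 1.84, 3.10 and 1.82 FPKM next to 1.29, 0 and 0 for Eldr cKO (log2 fold change -1.28, SE 1.29, limma, adjusted p = 1.00). On 1 kb of transcript, 1 fragment was worth 12.6 and 7.67 FPKM in control 2 and 3, and 19.1 and 17.9 FPKM in Eldr cKO 2 and 3. The low values of Serpinh1 and the values of Hspa14 in these libraries therefore rest on very few fragments or none. On the same scale, the Serpinh1 values of 31.2 and 29.1 FPKM in Eldr cKO 2 and 3 rest on few fragments as well. All of these genes were chosen after the values were seen.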
